A study of Mus musculus with 8 samples.

Results

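Fully grown oocytes are held in meiotic prophase by cyclic AMP (cAMP), and the 10 genes described here encode the receptor, G protein, enzymes and kinase subunits of that arrest pathway: Gpr3, Gnas, Adcy3, Adcy9, Pde3a, Prkaca, Prkacb, Prkar1a, Prkar2a and Prkar2b. They were chosen by name, and every probe set that the platform annotation assigns to 1 of these symbols alone was taken, 32 probe sets out of 45037 on the array and 10 genes out of 18193 with a symbol. The study measured polysomal mRNA, the mRNA bound by several ribosomes, on 8 single-colour arrays. Mouse oocytes arrested at metaphase II (MII) made up 4 of them, and one-cell embryos exposed to α-amanitin, which blocks RNA polymerase II, made up the other 4. Each array held an independent batch of 160 to 500 eggs or embryos, and no α-amanitin treatment is named for the oocytes. Of strain, age and time after fertilization nothing is known here.

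The arrest pathway begins at GPR3, a constitutively active receptor of the oocyte surface, which acts through the stimulatory G protein encoded by Gnas on adenylyl cyclases that make cAMP. cAMP binds the regulatory subunits of protein kinase A (PKA) and frees its catalytic subunits, whose activity keeps the cell cycle kinase CDK1 in check. At ovulation the phosphodiesterase PDE3A breaks down cAMP and meiosis resumes, so MII oocytes have already left the prophase arrest that this pathway maintains. Stage and α-amanitin treatment changed together between the groups, so their effects cannot be told apart. Signals are relative to each array's total, and a fall in an mRNA's amount and a fall in its loading onto ribosomes cannot be told apart either.

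The libraries were not equal. The median signal was 26.9 to 33.8 on MII arrays and 71.8, 33.9, 27.8 and 37.9 on one-cell arrays 1 to 4. The geometric mean of 18 hybridization controls was 905 to 1364 on MII arrays. It was 14879, 2528, 857 and 3718 on one-cell arrays 1 to 4. One-cell array 1 stood farthest out, and arrays 2 and 4 also lay above every MII array in both measures, array 2 only just in the median. Correlations of log2 signal lay between 0.933 and 0.952 within MII oocytes and between 0.81 and 0.945 within one-cell embryos, and for the 10 genes, changes that one-cell array 1 decided or moved by over 1.5 times are given without it as well. All 10 measured oocyte markers lay above the array median on all 8 arrays. Of 13 measured cumulus and granulosa cell markers, 2 did so (Inha and Foxl2), and Amh and Cd44 did so on no array. The summed signal of that list was 536.4 to 668 on MII arrays and 429.5 to 792.7 on one-cell arrays 2 to 4, but 1525 on one-cell array 1. None of the 7 sperm markers measured lay above the median on all arrays, and Tnp1, Tnp2 and Smcp did on none; they summed to 153 to 244 on MII arrays, 169.8 to 273.6 on one-cell arrays 2 to 4 and 454 on one-cell array 1. Within that sum Prm2, a protamine of sperm chromatin, was 15.7 to 46.1 on MII arrays and 80.3 to 245.9 on one-cell arrays, while Akap4 was 61.8 to 106.9 and 6.1 to 25.9. Neither marker sum was corrected for the array median, which at 71.8 was also highest on one-cell array 1. The part of these other cells in the results was not tested, and in such bulk samples fewer cells of a type and less RNA per cell cannot be told apart.

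Between the MII oocyte and the one-cell embryo, polysomal mRNA of the receptor Gpr3 and of Gnas rose, and that of the catalytic subunit Prkaca and the regulatory subunit Prkar2b fell. For Gnas and for Prkaca 1 of 2 tested probe sets passed, and for Prkar2b 2 of 3. The mean over the tested probe sets passed for Gnas, Prkaca and Prkar2b. Each mean contains the probe sets that passed, so it is not separate support, and Gpr3 has 1 probe set only. Single probe sets of the cyclase Adcy9 and of the phosphodiesterase Pde3a also rose, while other probe sets of both genes did not. No probe set of Adcy3, Prkacb, Prkar1a or Prkar2a passed the test. A probe set was tested if it lay above its array's median on at least 4 of the 8 arrays, and 24 of the 32 were tested, with at least 1 for each gene. Of these 24, 4 were higher and 3 lower in one-cell embryos (limma, Benjamini-Hochberg adjusted p under 0.05 over all 23336 probe sets tested). Over all probe sets tested, 32.1% passed, 19.3% as higher and 12.8% as lower, against 29.2% of the 24, so the share that changed was near the background. All 7 that passed lay above the median on all 8 arrays. The groups did not overlap in 8 of the 24, where 32.6% of all probe sets tested did not overlap. The median log2 change was -0.20 over the 24 and 0.17 over all probe sets tested. With quantile normalization in place of the deposited scaling the latter was -0.12, and the 7 still passed in the same direction. With arrays centred on their medians 5 of the 7 passed, and those of Gpr3 and Gnas did not. Each log2 change subtracts the MII from the one-cell mean of log2(signal + 10), carries the limma standard error and understates the change of dim mRNAs.

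**Figure D1:**
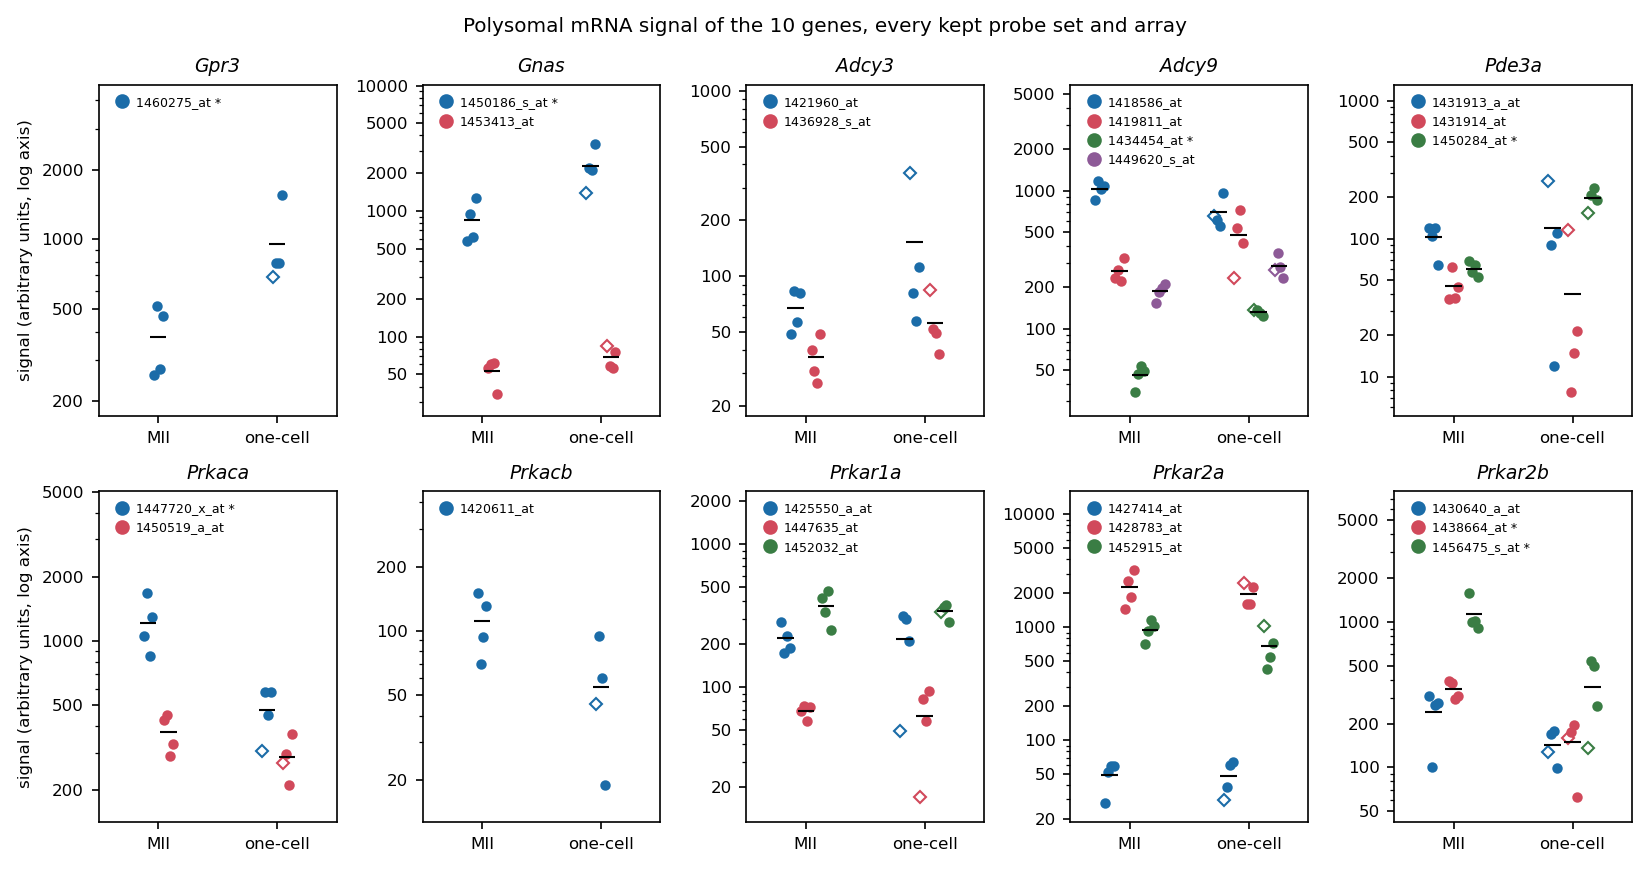
Signal (arbitrary units, log axis) of the 24 tested probe sets of the 10 genes on each of 4 MII oocyte and 4 one-cell embryo arrays. Points are arrays, open diamonds are one-cell array 1, bars are group means, and an asterisk marks an adjusted p under 0.05. Gpr3 and 1 probe set of Gnas lie higher on all 4 one-cell arrays, and 1 probe set of Prkaca and 2 of Prkar2b lie lower.

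Gpr3 has 1 probe set (1460275_at). Its signal was 259, 516.5, 275 and 468 on MII arrays 1 to 4 and 689.8, 793, 789 and 1554 on one-cell arrays 1 to 4. Every one-cell array was above every MII array, and one-cell array 4 was the highest. The means were 379.8 ± 132 (SD, n = 4) and 956 ± 401, a 2.52-fold rise (log2 change 1.30 ± 0.33, limma adjusted p = 0.00611). With each array centred on its median the change was 0.98 ± 0.44 and missed the threshold (adjusted p = 0.127), and over all 19 alternatives the adjusted p ran from 0.000797 to 0.127. The related receptor Gpr12, which also couples to the stimulatory G protein, had 3 probe sets, and none was bright enough to be tested, with the highest signal at 32.2 on one-cell array 1.

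Gnas encodes the α subunit of the stimulatory G protein, from a complex imprinted locus with several transcripts. Its probe set 1450186_s_at, of a type that matches more than 1 transcript, gave 574, 954, 616 and 1261 in MII oocytes and 1384, 2197, 2140 and 3397 in one-cell embryos. The lowest one-cell value was on array 1 and lay just above the highest MII value. The rise was 2.68-fold, from 851.5 ± 322 to 2279 ± 832 (SD, n = 4), with a log2 change of 1.41 ± 0.34 (limma adjusted p = 0.00446). It too missed the threshold with arrays centred on their medians (1.10 ± 0.49, adjusted p = 0.124). Averaged with the other tested probe set the gene changed by 0.86 ± 0.22 (adjusted p = 0.00733). That second probe set, 1453413_at, did not pass (0.31 ± 0.35, adjusted p = 0.553), with signals of 35 to 61.6 in MII oocytes and 56 to 84.3 in one-cell embryos. The other 3 probe sets of Gnas lay at or below the array median on all 8 arrays and were not tested.

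Adenylyl cyclases make cAMP from ATP, and Adcy3 and Adcy9 encode membrane-bound forms. The probe sets of Adcy9 did not move together. Its brightest, 1418586_at, gave 856.5, 1178, 1022 and 1090 in MII oocytes and 656, 616, 558.5 and 969 in one-cell embryos. Only one-cell array 4 reached into the MII range, and the change of -0.58 ± 0.28 did not pass (limma adjusted p = 0.126). Probe set 1434454_at gave 35, 46.8, 53.4 and 49.3 in MII oocytes and 136, 137, 130.5 and 123.5 in one-cell embryos. The groups were far apart for their spread, a 2.86-fold rise from 46.1 ± 7.9 to 132 ± 6.1 (SD, n = 4; log2 change 1.35 ± 0.31, adjusted p = 0.00281). On the same array, the log2 ratio of 1434454_at to 1418586_at lay within -0.16 to 0.20 of its MII mean on MII arrays and 1.35 to 2.21 above it on one-cell arrays. The remaining 2 probe sets, 1419811_at (0.75 ± 0.33, adjusted p = 0.0963) and 1449620_s_at (0.57 ± 0.27, adjusted p = 0.122), missed the threshold. For 1449620_s_at the groups nevertheless did not overlap, at 153 to 211 against 234 to 354. Without one-cell array 1, where it gave 235 and the other one-cell embryos 416 to 724, 1419811_at passed as higher (1.04 ± 0.27, adjusted p = 0.00694). Averaged over its 4 probe sets Adcy9 changed by 0.52 ± 0.21 (adjusted p = 0.0708).

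Adcy3 was dim and its tested probe sets did not pass. The brighter, 1421960_at, gave 49.1, 83.3, 56.9 and 81.7 in MII oocytes and 360, 81.4, 57.1 and 111.5 in one-cell embryos. One-cell array 1 stood apart there. With it the change was 0.76 ± 0.45 (limma adjusted p = 0.226), and without it 0.25 ± 0.31 (adjusted p = 0.592). Probe set 1436928_s_at changed by 0.48 ± 0.39 (adjusted p = 0.398), and by 0.29 ± 0.34 (adjusted p = 0.565) with that array left out. The other 2 were not tested.

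Pde3a encodes the phosphodiesterase that ends the cAMP block in the oocyte. Probe set 1450284_at gave 68.8, 57.8, 64.3 and 52.7 in MII oocytes and 154.5, 208, 235 and 192 in one-cell embryos. The groups did not overlap and the rise was 3.24-fold, from 60.9 ± 7.09 to 197.6 ± 33.7 (SD, n = 4; log2 change 1.54 ± 0.29, limma adjusted p = 0.000673). Its call held in all 18 alternatives in which it was tested (adjusted p from 4.54e-05 to 0.0248). Probe set 1431914_at gave 36.8, 62.7, 37 and 45 in MII oocytes and 115, 7.8, 14.9 and 21.3 in one-cell embryos. It was lower on one-cell arrays 2 to 4 than on any MII array and highest on one-cell array 1. The change was -0.59 ± 0.55 with that array (adjusted p = 0.477) and -1.18 ± 0.41 without it, which passed as lower (adjusted p = 0.0345). This probe set was tested because of its MII signal, since it lay above the median on 4 MII arrays and 1 one-cell array. The third, 1431913_a_at, ranged from 64.8 to 121 in MII oocytes and from 12 to 263 in one-cell embryos and did not pass (-0.25 ± 0.56, adjusted p = 0.790). It did not pass either when one-cell array 1 (-0.77 ± 0.47, adjusted p = 0.240) or one-cell array 3 (0.44 ± 0.39, adjusted p = 0.426) was left out, and its sign differed between them. Averaged over the 3 probe sets Pde3a changed by 0.23 ± 0.36 (adjusted p = 0.671), so its rise rests on 1 of them.

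**Figure D2:**
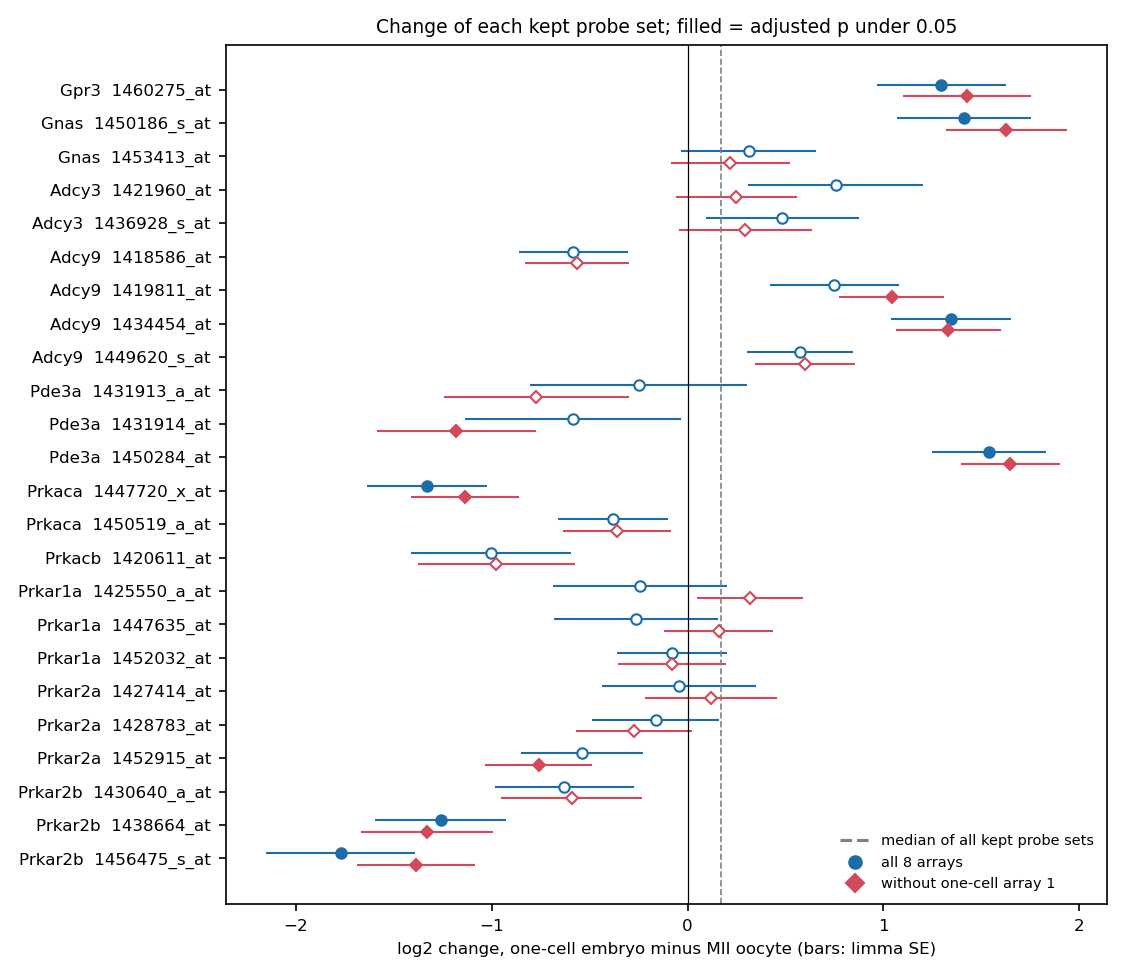
Log2 change (one-cell embryo minus MII oocyte, with the limma standard error as bars) of each tested probe set with all 8 arrays (circles) and without one-cell array 1 (diamonds). Filled symbols have an adjusted p under 0.05, and the dashed line is the median of all tested probe sets (0.17). The 7 changes that passed with all arrays also passed without that array, and 3 more passed only without it.

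PKA is a tetramer of a pair of regulatory and a pair of catalytic subunits. Prkaca encodes the main catalytic subunit. Probe set 1447720_x_at, of a type whose probes can also match other transcripts, gave 1053, 1684, 850.4 and 1295 in MII oocytes and 306, 577, 453 and 576 in one-cell embryos. Every one-cell array was below every MII array. The signal fell from 1221 ± 358 to 478 ± 129 (SD, n = 4), 2.55-fold lower (log2 change -1.33 ± 0.31, limma adjusted p = 0.00306), and its call held in all 19 alternatives (adjusted p from 0.00264 to 0.0196). The other probe set, 1450519_a_at, gave 428, 452, 291 and 329 against 268, 296, 212.5 and 368. Its groups overlapped and it did not pass (-0.38 ± 0.28, adjusted p = 0.346). The log2 ratio of 1447720_x_at to 1450519_a_at lay between -1.47 and -0.60 relative to its MII mean on the one-cell arrays, and between -0.37 and 0.29 on the MII arrays. Averaged over both probe sets Prkaca changed by -0.86 ± 0.24 and passed (adjusted p = 0.0136).

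Prkacb encodes the second catalytic subunit and was measured by 1 tested probe set, 1420611_at, with 151, 70.1, 93.6 and 131 in MII oocytes and 45.2, 94, 60.2 and 18.9 in one-cell embryos. The groups overlapped because one-cell array 2 lay above MII array 2 and just above MII array 3. The change was -1.0 ± 0.41 and missed the threshold (limma adjusted p = 0.0727). The probe set lay above the median on 4 MII arrays but on 2 one-cell arrays. It passed without one-cell array 2 (-1.28 ± 0.42, adjusted p = 0.031) and after quantile normalization (-1.4 ± 0.44, adjusted p = 0.031). Without one-cell array 4, the lowest, the change was -0.67 ± 0.39 (adjusted p = 0.235). The other 2 probe sets of Prkacb were not tested.

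Of the 3 regulatory subunits, only Prkar2b had probe sets that passed with all arrays, and both were lower in one-cell embryos. Prkar2b encodes the type II beta subunit, which anchors PKA to membranes and the cytoskeleton through anchoring proteins. Probe set 1456475_s_at gave 1586, 996, 1013 and 909.9 in MII oocytes and 135, 542, 496 and 263 in one-cell embryos. Its groups did not overlap, and one-cell array 1 was the lowest. The signal fell 3.13-fold, from 1126 ± 310 to 359 ± 193 (SD, n = 4; log2 change -1.77 ± 0.38, limma adjusted p = 0.00194), and the change among the remaining 7 arrays, one-cell array 1 left out, was -1.39 ± 0.30 (adjusted p = 0.00224). Probe set 1438664_at gave 394.5, 382, 297 and 309 against 159.5, 175, 196 and 62.8, again without overlap (-1.26 ± 0.33, adjusted p = 0.00805). The third, 1430640_a_at, gave 309, 101, 270.2 and 278.5 against 128, 168, 177 and 98.7. MII array 2 lay within the one-cell range there. The change was -0.63 ± 0.35 with all arrays (adjusted p = 0.203) and -0.98 ± 0.32 without MII array 2, when it passed (adjusted p = 0.0283). The mean of the 3 probe sets changed by -1.22 ± 0.28 (adjusted p = 0.00411).

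Prkar1a encodes the type I alpha subunit, the most widely expressed regulatory subunit. Its brightest probe set, 1452032_at, gave 420.5, 336, 471 and 251 in MII oocytes and 339, 366, 378 and 284 in one-cell embryos. The one-cell arrays all lay inside the MII range (-0.08 ± 0.28, limma adjusted p = 0.872). The other 2 probe sets, 1425550_a_at (-0.24 ± 0.44, adjusted p = 0.737) and 1447635_at (-0.26 ± 0.42, adjusted p = 0.697), were lowest on one-cell array 1, at 49.3 and 17.1. Without that array their changes were 0.32 ± 0.27 and 0.16 ± 0.28, and neither passed (adjusted p = 0.414 and 0.716).

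Prkar2a encodes the type II alpha subunit. Its brightest probe set, 1428783_at, gave 1464, 2593, 1864 and 3228 in MII oocytes and 2471, 1610.3, 1615 and 2267 in one-cell embryos. The one-cell values lay within the MII range, and the change was -0.16 ± 0.32 (limma adjusted p = 0.764), or -0.27 ± 0.30 (adjusted p = 0.533) without one-cell array 1. Probe set 1452915_at gave 709.9, 930.7, 1171 and 1024 against 1032, 426.5, 543 and 729.5 (-0.54 ± 0.31, adjusted p = 0.216). Its one-cell array 1 was as high as the MII arrays, and without that array it passed as lower (-0.76 ± 0.27, adjusted p = 0.0419). The dim probe set 1427414_at changed by -0.05 ± 0.39 (adjusted p = 0.950), and by 0.12 ± 0.34 (adjusted p = 0.827) without one-cell array 1. Probe set 1432409_at was too dim to be tested.

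Whether related subunits changed unequally was compared within arrays, where the scaling of an array cancels. For 5 pairs of genes, each represented by its brightest tested probe set, the log2 ratio on each array was compared between groups with a two-sided exact permutation test. With 4 arrays against 4 the smallest possible p is 0.0286. The ratio of Prkar1a to Prkar2b was 1.69 higher on the log2 scale in one-cell embryos. It lay within -0.31 to 0.50 of the MII mean on MII arrays and 1.03 to 2.85 above it on one-cell arrays, with no overlap (exact p = 0.0286, and 0.0714 after Benjamini-Hochberg adjustment over the 5 pairs). The ratio of Prkar2a to Prkar2b was 1.61 higher with overlapping groups (exact p = 0.0857, adjusted 0.143). Prkar1a and Prkar2a differed little in their change (0.08, exact p = 0.971, adjusted 0.971), with ranges of -1.06 to 0.80 and -0.38 to 0.51. The change of their ratio was 0.20 without one-cell array 1. It ran from -0.27 without MII array 4 to 0.35 without MII array 1. The ratio of Prkaca to Prkacb changed by -0.33 (exact p = 0.457, adjusted 0.571). One-cell array 4 stood at 0.99 relative to the MII mean and the other one-cell arrays at -0.85 to -0.63. The change was -0.77 without one-cell array 4, -0.16 without one-cell array 1 and 0.0237 without MII array 2. The ratio of Adcy3 to Adcy9 was 1.34 higher and without overlap (exact p = 0.0286, adjusted 0.0714), but 0.81 with one-cell array 1 left out and 0.10 with the probe sets of each gene averaged. No pair passed after adjustment. Prkar1a/Prkar2b and Adcy3/Adcy9 were already at the smallest possible p, so neither could have passed with the other pairs as they were. For them the adjusted test does not decide whether the change was unequal.

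**Figure D3:**
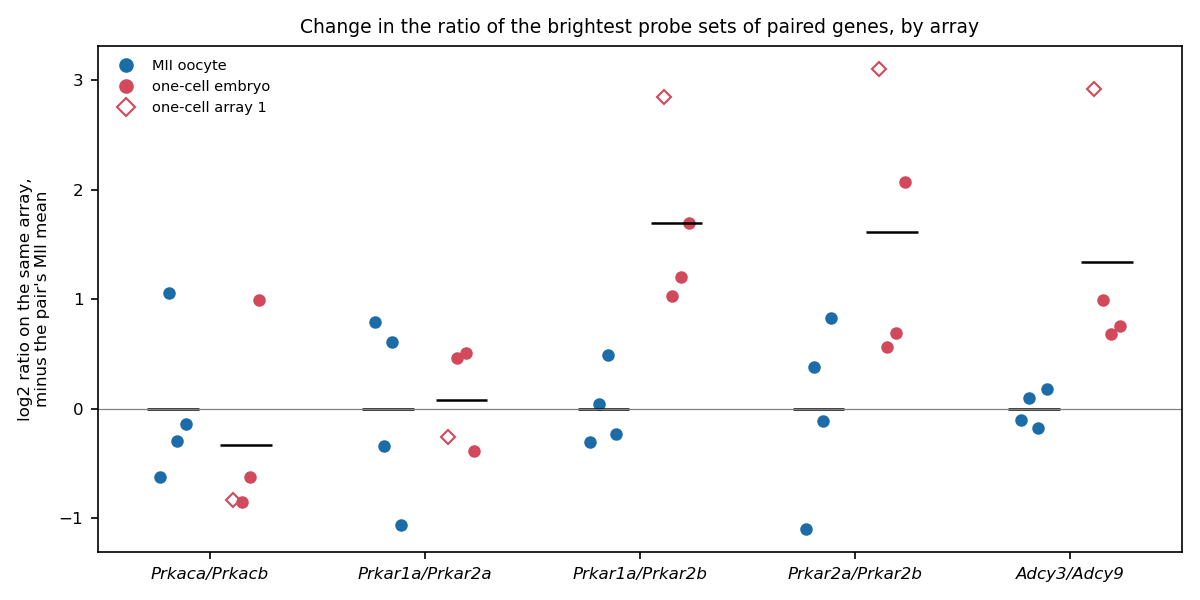
Log2 ratio of the brightest tested probe sets of 2 genes on the same array, minus the mean of that ratio on the MII arrays, for 5 pairs. Points are arrays, the open diamond is one-cell array 1, and bars are group means. For Prkar1a/Prkar2b and Adcy3/Adcy9 every one-cell array lies above every MII array, with one-cell array 1 the farthest.

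Beyond these 10 genes, a list of 81 others was drawn up for the receptors, G proteins, enzymes, anchoring proteins and meiotic effectors around cAMP and PKA, and 62 were measured. By their brightest tested probe set, 8 were higher and 9 lower in one-cell embryos (limma adjusted p under 0.05), against 20.1% higher and 14.7% lower among all 12359 genes measured. The median log2 change of the list was 0.02, and that of all genes 0.16. With the probe sets of a gene averaged, 14 were higher and 8 lower, against 22.1% and 12.8% of all genes. Of the 17 calls by the brightest probe set, 12 lay above the median on all 8 arrays. Akap4 and Gja1 did so on no one-cell array and Rapgef3 on 1 MII array, so these 3 were tested only through the group where they are high. Among genes not called by their brightest probe set, a dimmer one passed as higher in 10 and as lower in 2. The counts by role that follow are small and none was tested against the share over all genes.

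Of 13 other phosphodiesterases measured, 1 rose and 2 fell by the brightest probe set. Pde3b, the other member of the PDE3 family, fell from 5278 ± 1239 to 1175 ± 263 (SD, n = 4; -2.16 ± 0.31, limma adjusted p = 6.79e-05). Pde8a, which encodes a cAMP phosphodiesterase of high affinity, fell from 1522 ± 319 to 323 ± 43.5 (-2.19 ± 0.27, adjusted p = 1.52e-05), and its other probe set did not pass (-0.93 ± 0.36, adjusted p = 0.0579). Pde1b, a calcium- and calmodulin-dependent phosphodiesterase, rose from 98.95 ± 31.3 to 358 ± 108 (1.74 ± 0.32, adjusted p = 0.000576). A dimmer probe set of Pde8b passed as higher (1.28 ± 0.38, limma adjusted p = 0.0165), above the median on 1 MII array and 4 one-cell arrays. The brightest of Pde8b did not pass (0.63 ± 0.44, adjusted p = 0.318). None of the 5 other cyclases measured passed by its brightest probe set, with Adcy6 (0.88 ± 0.54, and 0.37 ± 0.45 without one-cell array 1), Adcy5 (0.26 ± 0.27) and Adcy2 (-0.15 ± 0.29) the nearest, although a dimmer probe set of Adcy5 did (1.40 ± 0.37, adjusted p = 0.00816).

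Among 11 G protein and receptor genes, 0 rose and 2 fell by the brightest probe set. Dimmer probe sets passed as higher for Rgs2, a regulator of G protein signalling (2618 ± 843 to 12118 ± 3503 (SD, n = 4), 2.23 ± 0.36, limma adjusted p = 0.000197), and for Ric8a, a chaperone of G protein α subunits (0.98 ± 0.35, adjusted p = 0.0412). The brightest probe set of Rgs2 did not pass (0.20 ± 0.39, adjusted p = 0.757). For Gnai1 a dimmer probe set passed as lower (-1.02 ± 0.30, adjusted p = 0.016), and the brightest did not pass (-0.70 ± 0.41, adjusted p = 0.225). Gnai3, an α subunit of the inhibitory G proteins that oppose cyclase, fell from 4450 ± 1638 to 1391 ± 639 (SD, n = 4; -1.72 ± 0.38, limma adjusted p = 0.00253), and both of its probe sets passed. The inhibitory subunit Gnai2 changed by 0.83 ± 0.32 and missed the threshold (adjusted p = 0.0565), but passed as higher without one-cell array 1 (0.98 ± 0.29, adjusted p = 0.0164) or MII array 4 (0.98 ± 0.35, adjusted p = 0.0464) and after quantile normalization (1.13 ± 0.29, adjusted p = 0.0107). The β subunit Gnb4 fell by its brightest probe set (-1.01 ± 0.30, adjusted p = 0.0174) and rose by another (1.94 ± 0.28, adjusted p = 7.15e-05). Leaving out MII array 3 or 4, or centring arrays on their medians, took the fall out of the calls (adjusted p = 0.0574, 0.0686 and 0.0532).

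Of 3 further PKA subunit and inhibitor genes, Pkig, an inhibitor that binds free catalytic subunits, rose from 96.7 ± 31.2 to 235 ± 40.9 (SD, n = 4; 1.23 ± 0.31, limma adjusted p = 0.00533), and both of its probe sets passed. That of its brightest missed the threshold after quantile normalization (0.76 ± 0.29, adjusted p = 0.0675) and median centring (0.91 ± 0.33, adjusted p = 0.0609). The type I beta regulatory subunit Prkar1b fell by 1 of its 3 probe sets (-1.09 ± 0.33, adjusted p = 0.0193), and that call was lost without MII array 1 or 2 (adjusted p = 0.0511 and 0.0637). Prkx, a related kinase, did not pass by its brightest probe set (-0.31 ± 0.29, adjusted p = 0.466), though another rose (1.06 ± 0.31, adjusted p = 0.0156). After quantile normalization the brightest passed as lower (-0.81 ± 0.28, adjusted p = 0.0464). The inhibitor Pkia was too dim to be tested, at 13 or less on all arrays.

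Of 14 anchoring protein genes, 1 rose and 3 fell by the brightest probe set. The falls were Akap11, Akap9 and Akap4 (88.4 ± 19.7 to 19.9 ± 9.29 (SD, n = 4), -1.77 ± 0.41, limma adjusted p = 0.00333). Akap4 was on the sperm marker list, but its signal was in MII oocytes, before fertilization, so it did not act as a sperm marker here. Akap8, a nuclear anchor, rose by both of its probe sets (1.47 ± 0.31 for the brighter, limma adjusted p = 0.00151). Akap11 fell from 670.4 ± 175 to 222 ± 39.9 (SD, n = 4; -1.53 ± 0.28, adjusted p = 0.000543). Akap9, a large anchor of the centrosome and Golgi, fell by its brightest probe set (-1.29 ± 0.27, adjusted p = 0.00155) and rose by another (1.35 ± 0.28, adjusted p = 0.00128), so the probe sets give it no single direction. Dimmer probe sets passed as higher for Akap1 (1.45 ± 0.33, adjusted p = 0.00283) and Akap10 (1.02 ± 0.35, adjusted p = 0.0338), and as lower for Akap13 (-1.66 ± 0.29, adjusted p = 0.000386). The brightest probe sets of these genes did not pass.

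The kinase that PKA holds back in prophase showed the largest rise of the list. Cdk1, the mitotic and meiotic cell cycle kinase, rose from 68.3 ± 15.3 to 773 ± 358 (SD, n = 4; 3.19 ± 0.37, limma adjusted p = 7.22e-06). Cdc25b, the phosphatase that activates CDK1 when meiosis resumes, rose from 119.5 ± 9.79 to 585 ± 89.7 (2.19 ± 0.26, adjusted p = 1.07e-05). The inhibitory kinase Wee1 rose as well (1.89 ± 0.41, adjusted p = 0.00184). Wee2, the oocyte form of that kinase and a direct target of PKA, did not pass (7957 ± 2491 against 6179 ± 1704, -0.34 ± 0.38, adjusted p = 0.558), nor did Pkmyt1 (-0.08 ± 0.30, adjusted p = 0.883). Dimmer probe sets passed as higher for Cdc25a (1.48 ± 0.27, limma adjusted p = 0.00044), Crtc1 (2.03 ± 0.40, adjusted p = 0.00103) and Crtc3 (1.18 ± 0.35, adjusted p = 0.0164). The brightest probe sets of Cdc25a, Crtc1 and Crtc3 did not pass.

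Of the 5 genes of cGMP and gap junction supply measured, Gja4, the connexin of the oocyte's gap junctions with its follicle cells, rose from 999 ± 260.0 to 2093 ± 622 (SD, n = 4; 1.03 ± 0.32, limma adjusted p = 0.0203), with overlapping groups. Its call was lost with arrays centred on their medians (0.72 ± 0.49, adjusted p = 0.316) and when MII array 1 or 3, or one-cell array 2 or 4, was left out (0.0537 to 0.0785). Gja1, a connexin of the follicle cells, fell from 73.8 ± 39.7 to 16.9 ± 6.5 (-1.54 ± 0.46, adjusted p = 0.0166), at or below the median on all 4 one-cell arrays, and missed the threshold without MII array 1 or 2 (adjusted p = 0.0766 and 0.081). Prkg1 did not pass (0.73 ± 0.32, adjusted p = 0.0928). Rapgef3, a cAMP receptor other than PKA, rose from 23.8 ± 5.53 to 97.2 ± 31.8 (1.62 ± 0.38, adjusted p = 0.0036), above the median on 1 MII array and 4 one-cell arrays, so its MII level and its fold are poorly set.

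**Figure D4:**
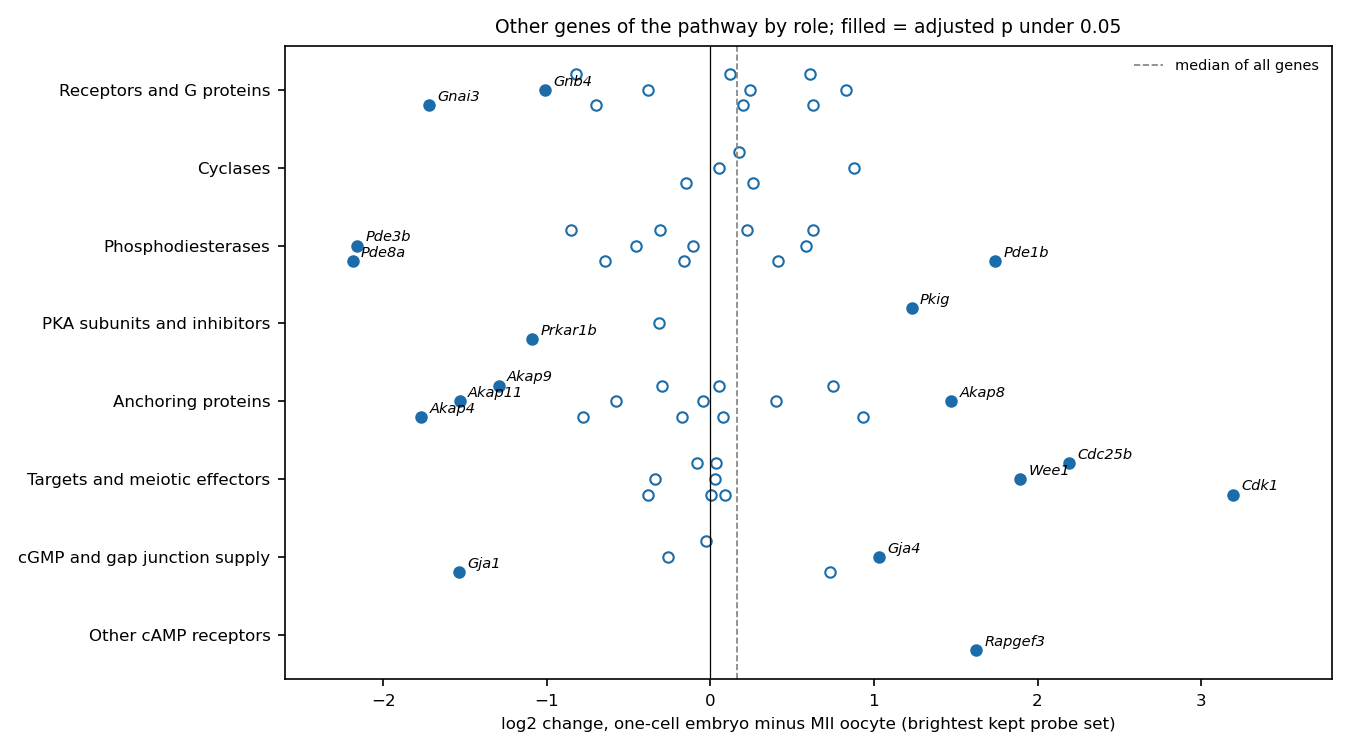
Log2 change (one-cell embryo minus MII oocyte) of 62 other genes of the pathway, each by its brightest tested probe set and grouped by role. Filled points have an adjusted p under 0.05 and are named, and the dashed line is the median of all genes (0.16). Cdk1 and Cdc25b lie farthest to the right, and Pde8a and Pde3b farthest to the left.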

How the data were processed

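Per the labels, polysomal RNA was amplified by 2 rounds of in vitro transcription with biotin labelling. The values the authors deposited are linear intensities, 1 for each probe set on each array. From the values, the mean without the lowest and highest 2% was 150.0 on each array, so arrays had been scaled to a common mean; array software is not given in the sources used here, and detection calls were not used here. The 64 control probe sets were left out. Platform annotation gave 1 gene symbol to 34945 probe sets, several to 932 and none to 9160; 34741 matched RefSeq.

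Intensities plus 10 were taken to log2 and probe sets above the array median on at least 4 arrays were fitted with limma 3.58.1 in R 4.3.3 (variance trend, two-sided, Benjamini-Hochberg over all fitted). The fit was also run on simulated independent normal values with few changed probe sets and no outlying array. That run does not speak for data with an outlying array or many changes. A gene was represented by its brightest fitted probe set. All 24 tested probe sets of the 10 genes are reported, and 8 others were not tested. Of the list, up to 3 genes per role with the smallest p and 6 fixed genes are reported. The cumulus, granulosa and sperm genes, Rgs2, Ric8a, Gnai1, Pde8b, Akap1, Akap10, Akap13, Cdc25a, Crtc1 and Crtc3 were named after their values were seen. The members and lists were chosen with earlier results of these data known. Repeated amplification favours 3′ ends, and 4 arrays per group limit the precision. Alternatives covered scaling, offset (1, 50), filter, variance model, array weights, threshold (0.01), replicate block and each array left out.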

Additional observations from a re-analysis of the deposited data

Results flagged for a closer look

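In groups of 4 arrays, a sample was singled out when its gap to the nearest other, divided by the group's range of log2 signal, exceeded Dixon's 95% critical value. This happened in 3 of 52 groups examined, where chance gives about 1 in 20. Gpr3 was highest on one-cell array 4 (1554 against 689.8 to 793 on the others, ratio 0.829191, at the limit itself). Gnas probe set 1453413_at was lowest on MII array 4 (35 against 56.7 to 61.6, ratio 0.847). Prkar2b probe set 1430640_a_at was lowest on MII array 2 (101 against 270.2 to 309, ratio 0.878).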

How the results depend on the processing

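The 7 changes that passed among the 10 genes kept their direction in every alternative in which they were tested, and the calls were lost for Gpr3 and Gnas 1450186_s_at with median centring. That setting left 2 higher probe sets, as did the filter at the 75th percentile, which left Adcy9 1434454_at and Pde3a 1450284_at untested. Array weights gave 5 higher and 5 lower, with 36.8% of all probe sets called, and leaving out an array gave 4 to 5 higher and 3 to 5 lower (5 and 5 without one-cell array 1, with 34.5% of all called). Averaging probe sets gave 14 higher genes of the longer list and 0.15 for Prkaca/Prkacb. Changes that did not pass with all arrays also changed sign. Quantile normalization gave -0.0899 for Gnas 1453413_at, 0.29 for Prkar2a 1428783_at and 0.11 for Wee2, and median centring -0.00398 for Gnas 1453413_at and -0.0557 for Adcy5. Array weights gave 0.21 and 0.11 for Prkar1a 1425550_a_at and 1447635_at, 0.0099 for Prkar2a 1427414_at, 0.0391 for Adcy2 and 0.12 for Pkmyt1. Leaving out arrays gave -0.50 to 0.32, -0.49 to 0.16 and -0.25 to 0.0463 for Prkar1a 1425550_a_at, 1447635_at and 1452032_at, -0.25 to 0.12 and -0.35 to 0.0249 for Prkar2a 1427414_at and 1428783_at, -0.77 to 0.44 for Pde3a 1431913_a_at, -0.34 to 0.00914 for Adcy2 and -0.27 to 0.0725 for Pkmyt1. Where no value above shows the cause, the cause was not tested. Same-numbered arrays of the groups deviated together little (correlations of -0.16, -0.11, 0.14 and 0.04), though for MII arrays 3 and 4 the same number was the closest partner. With 4 arrays per group this does not decide whether the numbers pair the arrays, and the main fit did not pair them. With the replicate number as a block, 7209 probe sets passed against 7493, with 4 higher and 3 lower among the 10 genes, and 9 higher and 9 lower in the longer list. Over all probe sets, 60.2% of calls were higher as deposited, 48.7% after quantile normalization and 50.8% with median centring. Dim probe sets, near the array medians of 26.9 to 71.8, limit what can be read for Adcy3, Prkacb and Pde3a. The same limit holds for probe sets that passed, Pde3a 1450284_at (52.7 to 68.8 in MII oocytes) and Adcy9 1434454_at (35 to 53.4). The folds of these rises rest on MII values not far above the array median.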
